A study of Homo sapiens with 7 samples.

Results

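The proteasome is described here through the transcripts of 42 of the 19699 genes counted, chosen by symbol and role, with no rule on their values but with earlier results of these data known. They encode 14 core subunits (PSMA1 to PSMA7 and PSMB1 to PSMB7), 6 base ATPases (PSMC1 to PSMC6) and 14 non-ATPase subunits and chaperones of the regulatory particle (PSMD1 to PSMD14). The others are 4 activators (PSME1 to PSME4) and 4 assembly factors (POMP and PSMG1 to PSMG3). PSMD5 and PSMD9, chaperones of base assembly, are counted with the PSMD members by symbol. All 42 were found and all passed the filter on low counts in every test.

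The series holds RNA-seq counts of 7 libraries, 1 per group, and each group is the same human colon carcinoma line, HCT116, with p53 knocked out. The treated arms, 3 in all, received arsenic trioxide (ATO), an arsenic compound used against acute promyelocytic leukemia, at 1 µg/ml for 24 h: p53-/- cells with the control infection (vector with ATO), p53-/- cells with p53-M133T and ATO, and p53-/- cells with p53-R273H and ATO. The untreated p53-/- arms, 4 in all, carried wild-type p53, the variant p53-M133T, the variant p53-R273H, or vector. M133T and R273H are amino acid substitutions in p53, a transcription factor, and the control is called vector in the series design and vehicle in the treatment protocol. The labels do not say whether the infected cells were clones or pools, nor from which promoter p53 was expressed.

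The proteasome degrades proteins that carry ubiquitin. Its core is a barrel of stacked rings, with outer PSMA rings that gate entry and inner PSMB rings that hold the proteolytic sites, while the base ATPases unfold substrates and the lid removes ubiquitin. PSME activators open the core without ATP, and dedicated chaperones assemble it. When proteasome capacity falls short in mammalian cells, the transcription factor NFE2L1 is known to raise the transcripts of many subunits together.

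Levels are read counts relative to library size (CPM, after TMM scaling), and values of 3 lines stand in the order vector, p53-M133T, p53-R273H. Total counts ranged from 25062996 in the wild-type p53 library to 39297534 in untreated p53-M133T cells. HMOX1, the arsenic-inducible heme oxygenase gene, stood at 2011, 2229 and 1711 CPM with ATO in the 3 lines, against 25.04, 30.6 and 22.6 CPM without it. The epithelial markers EPCAM, KRT8 and CDH1 had at least 4106 counts in every library, while KRT20, VIL1 and CDX1, which mark differentiated or intestinal epithelium, were between 0 and 54, and CDX2, an intestinal transcription factor, had 391 to 614. The name of the wild-type p53 library starts with a prefix that no other library has, so batch and wild-type p53 cannot be told apart.

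Proteasome transcripts were abundant in all 7 libraries. Per kilobase of exon, mean levels ranged from 4.23 CPM per kb for PSMD9, an assembly chaperone of the base, to 148 CPM per kb for PSMB3, a structural ring subunit. The members' median was 38.9 CPM per kb, against 6.06 CPM per kb over the 12661 genes that reached 1 CPM in any library. Core subunits had a median of 73.2, base ATPases 47.4, PSMD members 37.3, activators 28 and assembly factors 19 CPM per kb. Core subunits were thus highest per length, but not before division by it, with medians in that order of 165, 176, 170, 116 and 52.4 CPM. The length used counts all annotated exons of a gene. The coefficient of variation over the 7 libraries had a median of 11.1% for members, against 14.9% for all genes, and ranged from 5.85% to 34.7% among the members. The members' median level was 163 CPM, against 31.7 CPM for all genes, and genes of like level were not compared. Of the 42 members, 18 share exons with another gene and 10 have named pseudogenes. How reads were counted, and whether by strand, was not given in the sources used here, so the values of these members are uncertain.

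**Figure D1:**
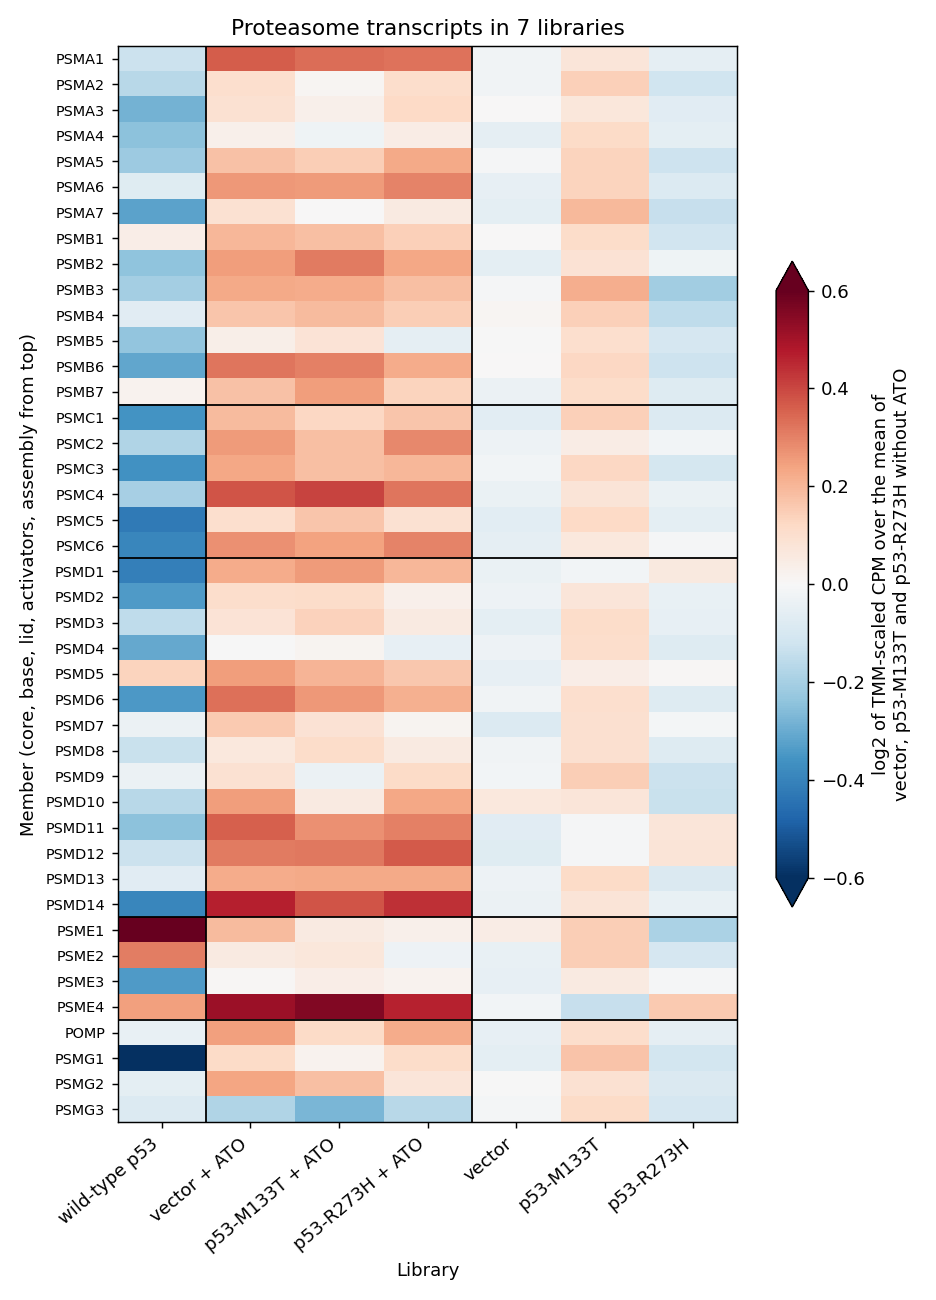
Level of each of the 42 members (rows) in each library (columns), as log2 of TMM-scaled CPM over the mean of the untreated vector, p53-M133T and p53-R273H libraries; lines separate core, base, PSMD, activator and assembly members. PSME4, PSMD14, PSMC4 and PSMA1 are highest in the 3 ATO libraries, PSME1 in the wild-type p53 library, and PSMG1 is lowest there.

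ATO was compared with no ATO across the 3 lines, to see which proteasome transcripts changed in common. With ATO, 18 of the 42 members rose and 0 fell in the quasi-likelihood test of edgeR (Benjamini-Hochberg adjusted over all 13572 genes tested), where 22.3% of genes rose and 20.9% fell. At an unadjusted p under 0.05 the counts were 23 and 1, against 3590 and 3427 of the 13572 genes. DESeq2 called 18 and 0, against 18.2% and 15.4% of genes. The fold changes were small: the members' median log2 fold change was 0.17, against 0.00 for all genes, 40 of 42 were above 0, and no member reached 1.5-fold. Summed over the members, transcripts stood at 7469, 7402 and 7318 CPM with ATO in the 3 lines, against 6374, 6952 and 6282 CPM without it. All 3 sums with ATO were above all 3 without.

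The count of risen members depended on the line left out, as given in the same test on 2 lines. With the vector pair left out 5 rose, with the p53-R273H pair left out 12, and with the p53-M133T pair left out 34; of all genes 11.3%, 20.3% and 26.8% rose in these fits. In that order the core count was 1, 3 and 12, the base count 1, 2 and 6, and the PSMD count 2, 6 and 11. PSMA1, PSMC4, PSMD12, PSMD14 and PSME4 were called in each of these and in the other 6 alternatives of the test. The 3 lines serve as replicates, so the p-values rest on how far the lines differ, and the spread between cultures of a line was not measured. In bulk RNA, a change in the makeup of the culture and a change in RNA per cell cannot be told apart.

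**Figure D2:**
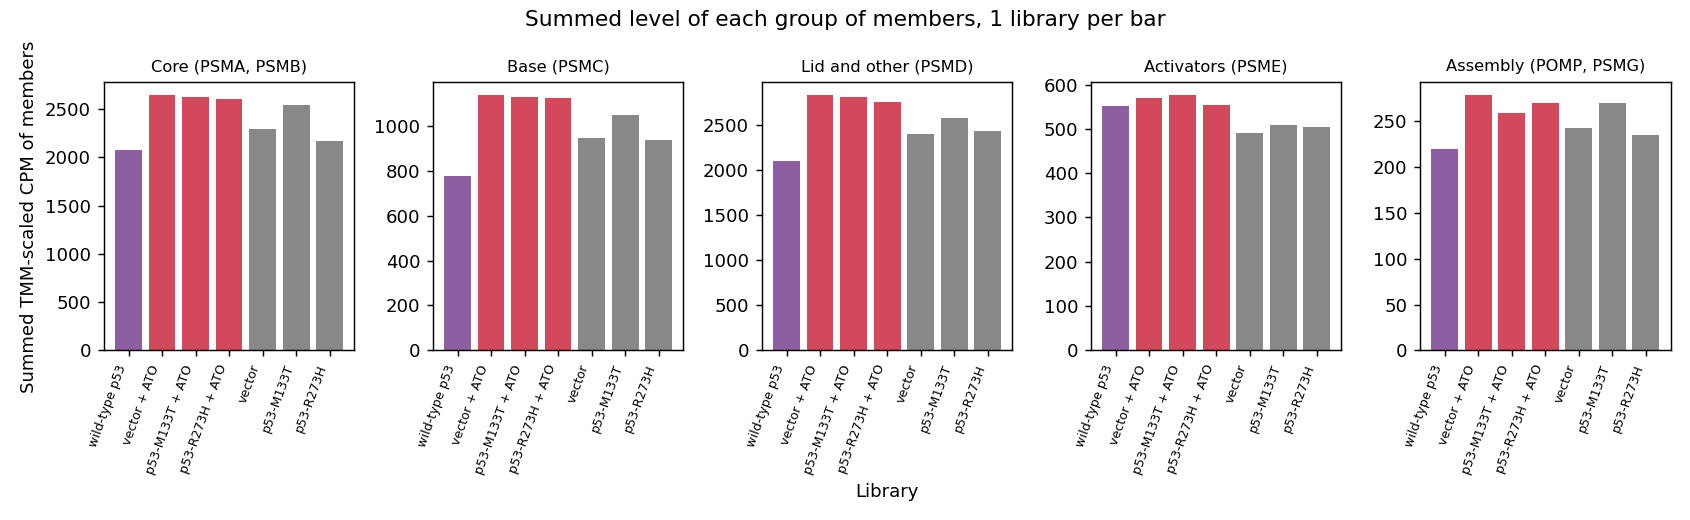
Summed TMM-scaled CPM of the members of each group (vertical axes, starting at 0) in each library, 1 library per bar, with wild-type p53 in purple, ATO in red and the other untreated libraries in grey. In the core, base, PSMD and activator panels the 3 ATO bars stand above the 3 grey bars; among assembly factors the grey p53-M133T bar lies within the ATO bars.

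The core subunits rose in part, 6 of 14, with a median log2 fold change of 0.17, where 22.3% of all genes rose. PSMA1, an outer ring subunit, stood at 253, 248 and 247.0 CPM with ATO in the 3 lines, against 194, 207.0 and 190 CPM without ATO. All 3 ATO libraries lay above all untreated ones, and PSMA1 rose by a log2 of 0.34 (SE 0.05; adjusted p = 0.00225). PSMA4, also of the outer ring, was the lowest core member in this test, at 196, 188 and 197 CPM with ATO, against 184.5, 207 and 184 CPM without. Its groups overlapped, and its log2 fold change of 0.01 (SE 0.06) did not pass. Of the 3 subunits with proteolytic sites, PSMB6 (log2 0.28; adjusted p = 0.00675) and PSMB7 (0.18; 0.026) rose, while PSMB5, the chymotrypsin-like subunit and the target of bortezomib, had 0.02 (0.836). PSMA6 (log2 0.26), PSMB1 (0.17) and PSMB2 (0.26) were the other core members that rose, and none of these 5 passed without the vector pair, nor PSMA6, PSMB1 and PSMB7 without the p53-R273H pair. With a length and GC correction PSMA6 (0.13; adjusted p = 0.135) and PSMB1 (0.07; 0.328) did not pass, PSMB1 and PSMB7 did not without the line as a block, and PSMB1 also did not by DESeq2 (0.0571) or with a mean of at least 10 CPM (0.0707).

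Of the 6 base ATPases 4 rose, where 22.3% of all genes rose. All 6 lay above 0, with a median log2 fold change of 0.22. PSMC4 (hg38 chromosome 19, 39971005 to 39981441, plus strand) stood at 205, 209 and 197 CPM with ATO, against 154, 167 and 154 CPM without ATO. The groups did not overlap, and it rose 1.28-fold (log2 0.36, SE 0.05; adjusted p = 0.00142). PSMC2 (log2 0.24), PSMC3 (0.20) and PSMC6 (0.26) also rose, though not without the vector pair, and PSMC2 and PSMC3 also not without the p53-R273H pair. With the length and GC correction PSMC2 (0.14; adjusted p = 0.0684) and PSMC6 (0.12; 0.133) did not pass, nor did PSMC3 with a mean of at least 10 CPM. PSMC5 had the lowest change of the base, at 276, 289 and 275 CPM with ATO, against 247, 280.4 and 248 CPM without. Its untreated p53-M133T library overlapped the ATO libraries, and its log2 fold change of 0.11 (SE 0.05; adjusted p = 0.123) passed only without the p53-M133T pair (0.0111).

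Among the PSMD members 7 of 14 rose, with a median log2 fold change of 0.19, where 22.3% of all genes rose. PSMD14 (hg38 chromosome 2, 161308038 to 161411717, plus strand), the deubiquitinase of the lid that removes ubiquitin chains from substrates, had the smallest p of all members. It stood at 225, 212 and 221 CPM with ATO in the 3 lines, against 159, 172 and 158 CPM without ATO. Every ATO library lay above every untreated one, and PSMD14 rose 1.34-fold (log2 0.42, SE 0.06; adjusted p = 0.00125).

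The lid scaffold subunits PSMD11 and PSMD12 changed by similar amounts. PSMD12 stood at 304, 306 and 317 CPM with ATO, against 234, 245 and 259 CPM without, and rose by a log2 of 0.33 (SE 0.05; adjusted p = 0.00199). PSMD11 stood at 242, 229 and 233 CPM with ATO, against 180.5, 188 and 199 CPM without, and rose by 0.31 (SE 0.06; adjusted p = 0.00428), though it did not pass without the vector pair. In neither gene did the ATO and untreated libraries overlap. PSMD6 (log2 0.26) and PSMD13 (0.22), also of the lid, PSMD1 (0.22), a scaffold of the base, and PSMD5 (0.20), a chaperone of base assembly, rose as well, and none of these 4 passed without the vector pair, nor PSMD13 without the p53-R273H pair. With the length and GC correction PSMD6 (0.10; adjusted p = 0.245) and PSMD5 (0.13; 0.0819) did not pass.

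Some regulatory subunits did not pass. PSMD4, a ubiquitin receptor, was the lowest PSMD member, at 166, 168 and 161 CPM with ATO, against 163, 179 and 158 CPM without ATO, a log2 fold change of -0.02 (SE 0.06; adjusted p = 0.815) with overlapping groups. PSMD2, the other base scaffold and the member with the highest CPM, stood at 557, 559 and 529 CPM with ATO, against 508, 545 and 503 CPM without, with 0.07 (SE 0.05; adjusted p = 0.26), and passed only with the length and GC correction (0.17; 0.0228).

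Of the activators 1 of 4 rose, where 22.3% of all genes rose. PSME4 (hg38 chromosome 2, 53864067 to 53970840, minus strand), which encodes PA200, a large single-chain activator of the core, had the largest log2 fold change of the 42 members. It stood at 194, 199.9 and 187 CPM with ATO in the 3 lines, against 134, 123 and 152 CPM without ATO. The groups did not overlap, and it rose 1.42-fold (log2 0.51, SE 0.08; adjusted p = 0.00176). PSME3, a nuclear activator, was the lowest, at 245, 250.4 and 248 CPM with ATO, against 236, 253 and 243 CPM without (log2 0.02, SE 0.05; adjusted p = 0.813). PSME1 and PSME2, the interferon-inducible pair that forms a joint ring, had log2 fold changes of 0.09 (adjusted p = 0.37) and 0.03 (0.766), and PSME1 passed as higher with the length and GC correction (0.0482) and without the p53-M133T pair (0.00909).

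None of the 4 assembly factors passed in either direction by edgeR (0 rose and 0 fell), where 2 were higher and 1 was lower at an unadjusted p under 0.05, and by DESeq2 (0 and 0). In the edgeR test 22.3% of all genes rose and 20.9% fell. POMP, which guides core maturation, had the highest change, at 132, 120.3 and 130 CPM with ATO, against 108, 119.5 and 107 CPM without (log2 0.19, SE 0.07; adjusted p = 0.0587). It passed as higher with no filter (0.0369), without the line as a block (0.0493) and without the p53-M133T pair (6.7e-07). PSMG1 and PSMG2 also passed as higher without that pair, so that 3 of 4 then rose, and PSMG2 passed with the length and GC correction (0.00828). PSMG3, a chaperone of the outer ring, had the lowest change of all members, at 29.4, 27.5 and 29.7 CPM with ATO, against 33.1, 36.1 and 31.1 CPM without. Its ATO libraries all lay below the untreated ones, but its log2 fold change of -0.21 (SE 0.08; adjusted p = 0.051) missed the threshold. PSMG3 passed as lower, as the only member to do so, with no filter on low counts, with a mean of at least 10 CPM, without the line as a block and without the p53-R273H pair.

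**Figure D3:**
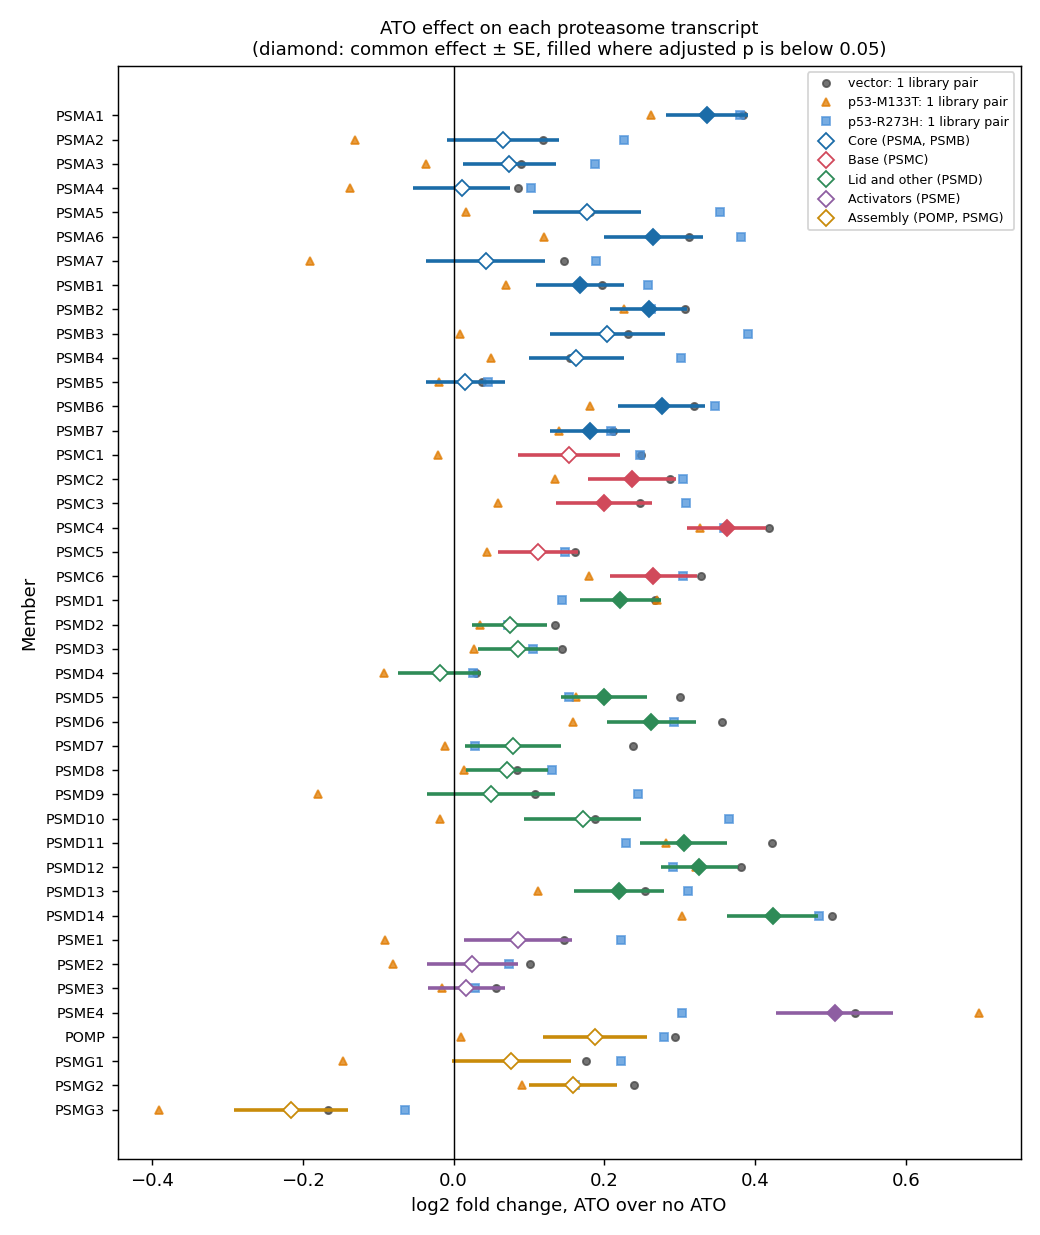
Log2 fold change of each member with ATO over without ATO: diamonds are the effect common to the 3 lines with bars of 1 SE, filled where the adjusted p is below 0.05, and small symbols are the ratio in each line from 1 library pair. All 18 filled diamonds lie right of 0, and the p53-M133T triangles lie left of the other 2 lines for most members, though not for PSME4.

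Some properties of the libraries and genes moved with ATO. Across the 13572 genes, the log2 fold change had a Spearman correlation of -0.371 with GC content and 0.169 with exon length, and across the 42 members -0.385 and 0.241; genes are not independent replicates. With a correction for length and GC, in the same fit with the line as a block, 19 members rose, among them 12 of the 18, where 25.1% of genes rose and 17.6% fell. PSMA6, PSMB1, PSMC2, PSMC6, PSMD5 and PSMD6 no longer passed. Mitochondrially encoded transcripts took 2.3%, 2.35% and 3.64% of counts with ATO in the 3 lines, against 3.69%, 4.59% and 3.77% without. Of 8 leukocyte markers 1 was above and 2 were below in all ATO libraries, where 27.6% of all genes were above and 26.5% below. The summed level of these markers was 7.94, 9.01 and 8.002 CPM with ATO, against 5.83, 4.72 and 4.72 CPM without. Of 8 epithelial markers 3 were above and 1 was below in all ATO libraries, beside the same shares of all genes. The epithelial markers summed to 4301, 4479 and 3634 CPM with ATO, against 3076, 3241 and 2760 CPM without. The erythroid and endothelial markers summed to 3.23, 2.91 and 1.99 CPM with ATO, against 15.1, 2.74 and 2.22 CPM without, so the untreated vector library stood apart, and the fibroblast markers to 17.5, 18.7 and 21.4 CPM, against 23.1, 24.6 and 22.4 CPM. In the leukocyte sum CD68, which encodes a lysosomal protein, made up most, while the defining markers PTPRC and CD3E had between 0 and 4 counts in every library. The part of these mitochondrial and marker transcripts in the proteasome result was not tested. Of the members with no shared exon 10 of 24 rose, and of those with one 8 of 18. With a named pseudogene 2 of 10 rose, and without one 16 of 32, where 22.3% of all genes rose. These splits were chosen with the results known.

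Promoter sequences were taken from RefSeq (GRCh38.p14), from 250 bases before to 50 after each start, for the 36 of 42 members in the table. NFE2L1 and NFE2L2, with small MAF partners, bind the antioxidant response element, searched as TGACNNNGC on both strands. This motif was in 12 of 36 member promoters (33.3%), against 15.0% of the 10359 promoters of genes tested for ATO. Of the 15 risen members with a promoter, these 5 held the motif, shown in capitals with up to 10 bases on each side, so that its place and form can be compared:

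PSMC4, chr19:39971182-39971210, plus strand: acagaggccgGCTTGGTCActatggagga

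PSMD1, chr2:231056896-231056916, plus strand: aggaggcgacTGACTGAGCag

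PSMD5, chr9:120843038-120843066, minus strand: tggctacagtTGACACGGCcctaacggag

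PSMD12, chr17:67366724-67366752, minus strand: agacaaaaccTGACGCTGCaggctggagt

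PSME4, chr2:53971009-53971037, minus strand: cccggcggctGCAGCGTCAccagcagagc

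The motif reads forward in PSMD1, PSMD5 and PSMD12 and as its reverse complement in PSMC4 and PSME4. Counted from the first transcribed base, it lay upstream of the start in PSMD12, PSMD5 and PSME4 and downstream of it in PSMC4 and PSMD1. Members with the motif rose as often as those without it: 5 of 12 rose with it (median log2 0.18) and 10 of 24 without it (median 0.17). A match is a description of the letters, not a bound site.

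PSMD14, with the smallest p, has no TGACNNNGC in its window. The stretch shown was chosen after its values were seen, because it holds the motifs CCAAT, on both strands in overlapping copies, and CCGGAAG, a form of the ETS family site, both in capitals:

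PSMD14, chr2:161308365-161308434, plus strand: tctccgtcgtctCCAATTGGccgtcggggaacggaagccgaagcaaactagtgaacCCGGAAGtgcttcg

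CCGGAAG, on either strand, was in 12 of 36 member promoters (33.3%), against 18.5% of the promoters of tested genes, and 7 of these 12 members rose, against 8 of the 24 without it. CCAAT was in 17 (47.2%), against 36.4%, and 5 of these 17 rose, against 10 of 19 without it. The heat shock form GAANNTTC was in 0 of 36, against 4.59%, and the palindromic NRF1 site was in 1 (2.78%), against 2.21%. No test was made of these shares.

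Other genes of the ubiquitin-proteasome pathway were described from lists chosen with earlier results of these data known. Of 9 regulators of proteasome genes 7 rose and 0 fell (8 and 0 at an unadjusted p under 0.05, 7 and 0 by DESeq2). Of all genes 22.3% rose and 20.9% fell in the edgeR test, and 18.2% and 15.4% by DESeq2. At an unadjusted p under 0.05, 3590 of the 13572 genes were higher and 3427 lower. NFE2L1 itself stood at 389, 394 and 372 CPM with ATO in the 3 lines, against 329, 319.6 and 324 CPM without, and rose by a log2 of 0.24 (SE 0.05; adjusted p = 0.00696). The groups did not overlap, but it did not pass without the vector pair (adjusted p = 0.087). NGLY1, which removes sugars from the NFE2L1 protein, stood at 47.0, 48.7 and 44.0 CPM with ATO, against 30.65, 33.9 and 30.1 CPM without, and rose by 0.56 (SE 0.06; adjusted p = 3.58e-04).

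DDI2, the protease that cleaves NFE2L1, stood at 93.05, 93.4 and 94.8 CPM with ATO, against 84.6, 70.6 and 97.1 CPM without, with overlapping groups and a log2 fold change of 0.16 that did not pass (SE 0.08; adjusted p = 0.15), except without the p53-R273H pair (0.0205). NFE2L2, the antioxidant factor, had 0.13 (SE 0.05; adjusted p = 0.0708) and passed without the p53-M133T pair (0.0184). The small MAF genes rose, MAFF by 0.81, MAFG by 0.70 and MAFK by 0.34, as did SEL1L by 0.70 and SYVN1 by 0.50, parts of the complex that removes misfolded proteins from the endoplasmic reticulum.

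Of 14 further subunits and proteasome-bound factors 9 rose and 0 fell (11 and 0 at an unadjusted p under 0.05, 9 and 0 by DESeq2). Of all genes 22.3% rose and 20.9% fell in the edgeR test, and 18.2% and 15.4% by DESeq2. ZFAND2A, which encodes an arsenite-inducible proteasome-binding protein, stood at 15.0, 14.9 and 14.5 CPM with ATO, against 6.42, 7.28 and 7.08 CPM without, and rose 2.13-fold (log2 1.09, SE 0.09; adjusted p = 1.36e-04). ECPAS, an adaptor of the proteasome, rose by a log2 of 0.59, PAAF1, which binds the ATPases, by 0.57, ZFAND5 by 0.45, TXNL1 by 0.40, the deubiquitinase USP14 by 0.40, AKIRIN2, needed for nuclear import of proteasomes, by 0.33, the ubiquitin receptor ADRM1 by 0.21 and the deubiquitinase UCHL5 by 0.20. SEM1 (0.18), PSMF1 (0.15), ZFAND2B (0.04), UBE3C (0.01) and PSMG4 (-0.13) did not pass. Without the vector pair AKIRIN2, ADRM1 and UCHL5 did not pass, and UCHL5 also did not pass without the p53-R273H pair, without the line as a block (0.064) or with the length and GC correction, where it was 0.04 (0.576). Without the p53-M133T pair SEM1 and PSMF1 passed as higher.

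Among 4 ubiquitin genes and activating enzymes 1 rose and 1 fell, where 22.3% of all genes rose and 20.9% fell. UBA6, an activating enzyme, rose by a log2 of 0.50. UBA1, the main activating enzyme, fell by 0.21 on the log2 scale (SE 0.05; adjusted p = 0.0128), but did not pass without the vector pair (0.132), without the p53-R273H pair (0.0926) or with the length and GC correction, where it was -0.08 (0.286). Of 9 shuttle factors and p97 cofactors 8 rose and 0 fell (8 and 0 at an unadjusted p under 0.05, 8 and 0 by DESeq2), from SQSTM1 (log2 1.23), UBQLN1 (0.44), NPLOC4 (0.33), UBQLN2 (0.27), UFD1 (0.24) and FAF2 (0.21) to RAD23B (0.20) and VCP (0.17), the p97 ATPase. Without the vector pair 2 of these rose, SQSTM1 and UBQLN1, and without the p53-R273H pair 5, not RAD23B, VCP or UFD1. RAD23B (0.0504) and UFD1 (0.0645) also did not pass with the length and GC correction, nor VCP without the line as a block, and UBQLN4 passed as higher with that correction (0.0105). Of 5 immunoproteasome and tissue-specific subunits 2 could be tested, and PSMB9 fell, at 0.748, 0.660 and 0.867 CPM with ATO, against 1.39, 1.496 and 1.48 CPM without (log2 -0.95, SE 0.26; adjusted p = 0.0213; 0.0737 without the vector pair and 0.0858 by DESeq2), while PSMB10 did not pass (-0.12).

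**Figure D4:**
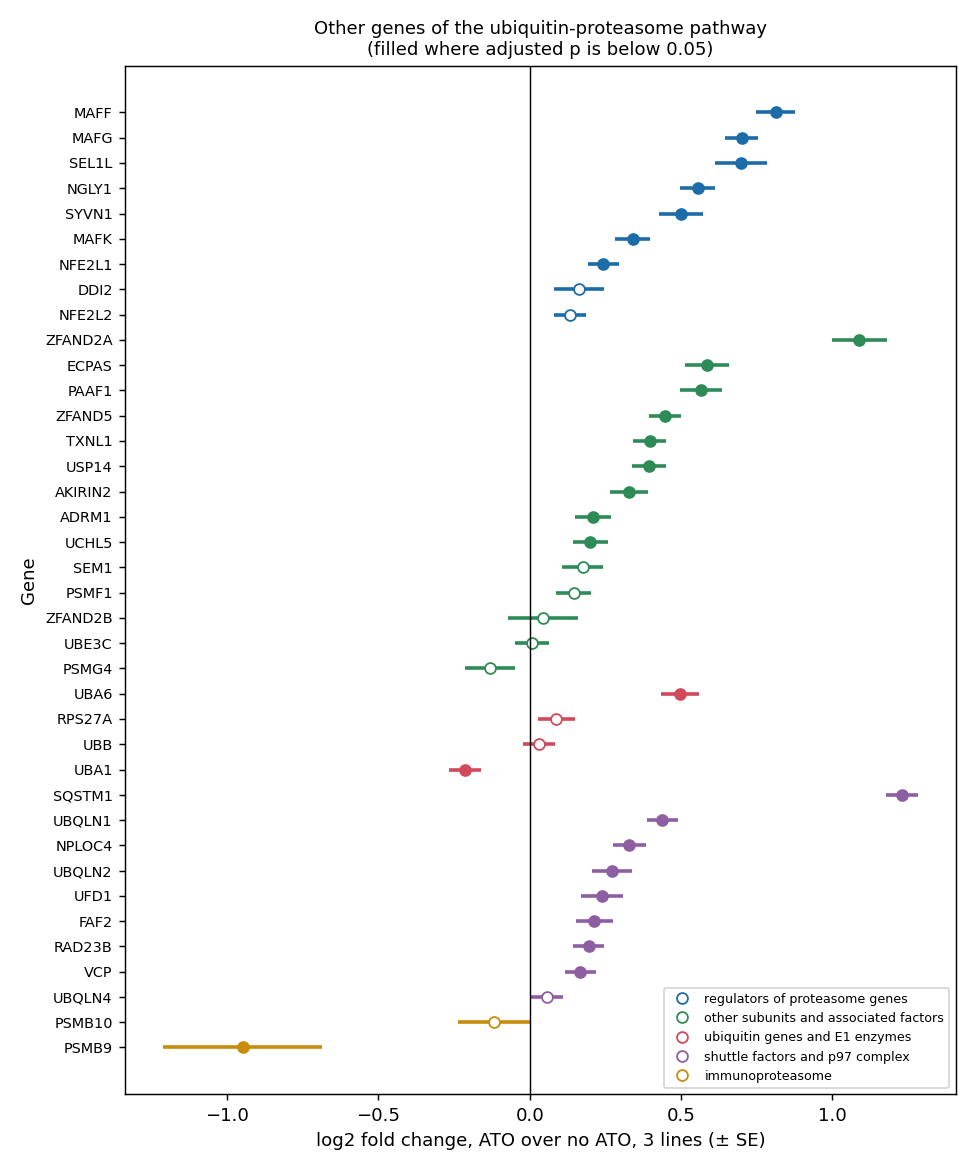
Log2 fold change (± SE) with ATO over without ATO, common to 3 lines, of other ubiquitin-proteasome genes on these lists that could be tested, coloured by list and filled where the adjusted p is below 0.05. SQSTM1 and ZFAND2A lie farthest right and PSMB9 farthest left.

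The 3 lines were then compared in their response. Within a line there is 1 library pair, so ratios carry a 95% Clopper-Pearson interval that covers counting error only, and there is no replicate check. The members' median log2 ratio of ATO over no ATO was 0.22 with vector, 0.04 with p53-M133T and 0.23 with p53-R273H. In vector cells 8 members were at least 25% higher and 0 at least 20% lower with ATO, against 14.3% and 16.4% of all genes, and in p53-R273H cells 8 and 0, against 13% and 15.7%. In p53-M133T cells 2 members, PSME4 and PSMC4, were higher by this size and 1, PSMG3, was lower, against 19.5% and 17.6%. Only PSMC4 passed this size in all 3 lines, with ratios of 1.34 (1.29 to 1.38), 1.253 (1.21 to 1.295) and 1.28 (1.24 to 1.33).

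The ATO effect in p53-M133T cells was tested against the mean ATO effect in the other 2 lines. Of the 42 members 7 had a lower effect there and 1 a higher one, where 2.43% of 13974 genes were lower and 5.84% higher, and the members' median difference was -0.16 on the log2 scale, against 0.00 for all genes. By DESeq2 no member was called (0 and 0), where 0.0215% of genes were lower and 1.13% higher and 7044 genes had no adjusted p. This test has 1 residual degree of freedom and 157.5 prior degrees of freedom, so the test leans on the spread shared by all genes. In the same test of each other line, no member was called, by edgeR (0 and 0, also at an unadjusted p under 0.05) or by DESeq2, where 0.15% and 0.0716% of genes in the test of p53-R273H and 0% and 0% in that of vector were called higher and lower. With so few genes called and larger errors, these tests do not show that members respond alike there: PSME4 had a difference of -0.30 in the test of p53-R273H (SE 0.15; adjusted p = 0.95), and PSMD9 had 0.29 (SE 0.16; 1).

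PSMA7, an outer ring subunit, had the lowest difference. It stood at 215 CPM with ATO and 245.5 CPM without it in p53-M133T cells, a ratio of 0.877 (0.851 to 0.903), against 229 and 207 CPM with vector and 223 and 195.5 CPM with p53-R273H. ATO cells were lower than untreated cells in p53-M133T cells and higher in the other lines, a difference of -0.35 (SE 0.09; adjusted p = 0.00351; 0.11 by DESeq2). PSMD9 had 35.7 CPM with ATO and 40.4 CPM without in p53-M133T cells, against 38.9 and 36.1 CPM with vector and 39.55 and 33.4 CPM with p53-R273H, a difference of -0.35 (SE 0.12; adjusted p = 0.0391; 0.0599 with no filter).

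PSMG1, a chaperone of the outer ring, showed the same order, with 57.9 CPM with ATO and 64.1 CPM without in p53-M133T cells, against 61.7 and 54.7 CPM with vector and 61.6 and 52.8 CPM with p53-R273H (difference -0.34, SE 0.10; adjusted p = 0.0191; 0.085 with the length and GC correction). PSMA2 and PSMB3 (both -0.30), POMP (-0.27) and PSMC1 (-0.27) were the other members with a lower effect, though POMP and PSMC1 did not pass with no filter (0.0825 and 0.0851), nor POMP with the length and GC correction (-0.18; 0.397). PSME4 went the other way, with 199.9 CPM with ATO and 123 CPM without in p53-M133T cells, a ratio of 1.62 (1.56 to 1.68), against 1.45 (1.39 to 1.5) with vector and 1.23 (1.19 to 1.28) with p53-R273H (difference 0.28, SE 0.09; adjusted p = 0.0325). With the length and GC correction the PSME4 difference was 0.09 (adjusted p = 0.74), and it did not pass with no filter (0.0721). PSMD1, next in order, stood at 295 CPM with ATO and 245 CPM without in p53-M133T cells, against 289 and 240.3 CPM with vector and 284 and 257 CPM with p53-R273H, and its difference of 0.07 (SE 0.09; adjusted p = 0.754) did not pass, nor did that of PSMD12 (-0.01).

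The members' levels lay closer together in the 3 ATO libraries than in the 3 untreated libraries of the same lines. In the 3 ATO libraries the coefficient of variation had a median of 3.01% over the members, against 6.93% in the 3 untreated libraries, and it was lower with ATO for 41 of 42 members (97.6%), against medians of 5.86% and 7.44% and a share of 58.9% over all 12661 genes. The untreated p53-M133T library was the highest of the 3 untreated ones for 38 of 42 members, against 42.2% of all genes. The ATO libraries all lay above the untreated ones for 21 members (27.6% of all genes) and all below for 1 (26.5%). This comparison was chosen after the values were seen, has 1 library per line and has no background of genes of like level.

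Untreated p53-M133T cells had slightly more proteasome transcript than untreated vector cells. Of the 42 members 41 had a log2 ratio above 0, with a median of 0.12, while 0 were at least 25% higher and 0 at least 20% lower, against 2.03% and 6.6% of genes. PSMA7 was 1.19-fold higher (1.15 to 1.22), and PSME4 was the 1 member below 0, at a ratio of 0.919 (0.883 to 0.957). With p53-R273H against the same vector library, 12 of 42 were above 0, with a median of -0.05, and again 0 passed the size, against 2.01% and 3.01%. Log2 ratios followed exon length across the 12661 genes, at a Spearman rho of -0.431 for p53-M133T and 0.299 for p53-R273H, and across the 42 members at -0.139 and 0.502. With GC content rho was 0.391 and -0.183 across all genes, and 0.219 and -0.318 across the members. The part of these trends in the members' ratios was not tested, except that a length and GC correction of the p53-M133T difference with ATO left 6 members lower and 0 higher, with a median of -0.14. Of all genes 2.38% were lower and 1.78% higher with that correction.

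Wild-type p53 cells were compared with the 3 other untreated libraries. Batch and wild-type p53 cannot be told apart in this comparison. Of the 42 members 7 were lower and 1 was higher in the quasi-likelihood test of edgeR (Benjamini-Hochberg adjusted over 13901 genes), where 12.8% of genes were lower and 12.4% higher. By DESeq2 10 were lower and 1 was higher, where 12.3% of genes were lower and 10.7% higher. The members' median log2 fold change was -0.20, against 0.00 for all genes, with 6 of 42 above 0, and wild-type p53 lay below all 3 untreated libraries for 27 members (38.3% of all genes) and above them for 4 (39.8%). Without the untreated vector library 1 member was lower and 1 higher, without the p53-M133T library 11 and 2, and without the p53-R273H library 11 and 1. Of all genes 6.84% were lower and 7.85% higher without the vector library, 16.8% and 15.9% without the p53-M133T library, and 15.6% and 16.6% without the p53-R273H library. The single wild-type library is assumed to vary like the other lines.

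PSME1 (hg38 chromosome 14, 24136158 to 24138967, plus strand), the alpha subunit of the interferon-inducible activator ring, was the member that rose. It stood at 117 CPM in wild-type p53 cells, against 57.4, 61.6 and 48.7 CPM in the other 3 untreated lines, outside their range (log2 1.06, SE 0.14; 2.08-fold; adjusted p = 0.00134). PSME2, its partner, stood at 80.3 CPM in wild-type p53 cells, against 62.8, 71.9 and 60.4 CPM, also above all 3, but did not pass (log2 0.30, SE 0.12; adjusted p = 0.122), except with a length and GC correction (0.33; 0.0366) and without the untreated p53-M133T library (0.37; 0.0122), and neither did PSME4, at 161 CPM in wild-type p53 cells, against 134, 123 and 152 CPM (0.23, SE 0.13; 0.219). Of the immunoproteasome genes PSMB9, which replaces a catalytic subunit after interferon, stood at 6.0 CPM in wild-type p53 cells, against 1.39, 1.496 and 1.48 CPM (log2 2.04, SE 0.24; adjusted p = 9.16e-04). PSMB10 went the other way, at 5.03 CPM in wild-type p53 cells, against 8.69, 8.495 and 6.315 CPM, below all 3 (log2 -0.65, SE 0.23). PSMB8 had 0.503 CPM, against 0.283, 0.0507 and 0.142 CPM (log2 1.66, SE 0.87). Neither passed in this test, though PSMB10 passed as lower with the length and GC correction and without the untreated p53-R273H library.

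PSMG1 (hg38 chromosome 21, 39174769 to 39183851, minus strand) was the lowest member, at 35.7 CPM in wild-type p53 cells, against 54.7, 64.1 and 52.8 CPM in the other 3 lines (log2 -0.69, SE 0.14; adjusted p = 0.0107). PSMC5 stood at 192 CPM in wild-type p53 cells, against 247, 280.4 and 248 CPM (log2 -0.43, SE 0.12; adjusted p = 0.0322), and PSMD1 at 186 CPM, against 240.3, 245 and 257 CPM (log2 -0.42, SE 0.10; adjusted p = 0.0231). In each of these 3 genes wild-type p53 lay below the whole range. PSMD14 fell by 0.40, PSMC6 by 0.40, PSMD2 by 0.35 and PSME3 by 0.35 on the log2 scale, and like PSMC5 and PSMD1 these 4 did not pass without the untreated vector library, nor PSME3 without the untreated p53-R273H library. Of the 14 core subunits 0 passed (0 higher and 3 lower at an unadjusted p under 0.05, 0 and 0 by DESeq2). With the length and GC correction 3 core subunits were lower, PSMA3, PSMA7 and PSMB6, where 18.4% of all genes were lower. Without the untreated p53-M133T library 1 was lower, PSMA3, and without the p53-R273H library 2, PSMA7 and PSMB6. PSME1 and PSMG1 were the members called in each of the 8 alternatives.

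**Figure D5:**
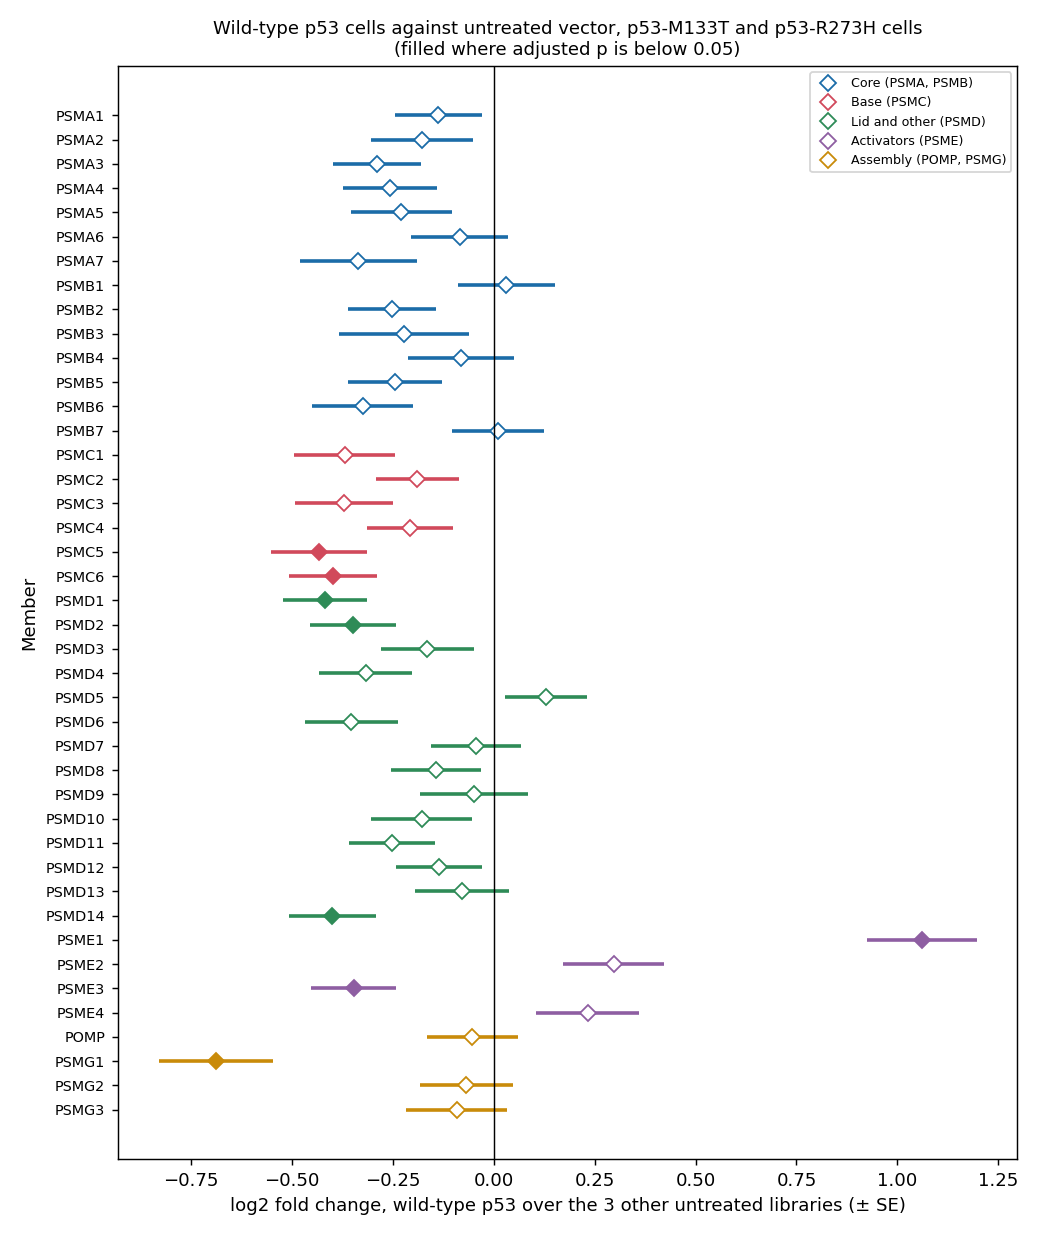
Log2 fold change (± SE) of each member in wild-type p53 cells over the 3 other untreated libraries, coloured by role and filled where the adjusted p is below 0.05. PSME1 stands apart at 1.06 and PSMG1 at -0.69, and most other diamonds lie left of 0.

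In the wild-type p53 library other signals stood apart as well. The leukocyte markers summed to 67.8 CPM, against 5.83, 4.72 and 4.72 CPM in the other 3 untreated lines, with 5 of 8 above all 3, as were 39.8% of all genes. MPO had 868 counts, CD68 716 and LYZ 149, while CD3E was at 0 and PTPRC at 4 counts. Erythroid and endothelial markers summed to 20.2 CPM in wild-type p53 cells, against 15.1, 2.74 and 2.22 CPM, the fibroblast markers to 22.4 CPM, against 23.1, 24.6 and 22.4 CPM, and the epithelial markers to 2710 CPM, against 3076, 3241 and 2760 CPM. Their part in the proteasome differences was not tested.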

How the data were processed

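The deposited values are raw counts per gene for 7 libraries, in 1 table. Per the labels' protocols, a TruSeq RNA kit and paired reads of 150 bp were used. STAR, cutadapt and FastQC are named with hg38, without versions, per the submitters' processing notes. The program that counted reads, its annotation and its use of strand were not given in the sources used here.

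Gene positions, exon lengths and GC contents came from GENCODE on hg38. Counts were analysed in R 4.3.3 with edgeR 4.0.16 (TMM scaling, its filter on low counts, quasi-likelihood test, Benjamini-Hochberg adjustment at 0.05), with DESeq2 1.42.0 as an alternative. The ATO test used 6 libraries with the line as a block and has 2 residual degrees of freedom. The line pairs the libraries, since both come from the same infected cells, and deviations of its libraries from their treatment means correlated at 0.131 (vector), 0.141 (p53-M133T) and 0.243 (p53-R273H). Comparisons of 2 libraries used log2(CPM + 1), a size of 25% higher or 20% lower, and genes with at least 1 CPM in any library. Intervals cover counting error only, as PCR copies of 1 molecule were not marked. The scripts were tested on simulated data with log2 changes of 1 and 2 in size. The largest member change in the ATO test was 0.51, so recovery of changes of that size was not tested.

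The members and lists were chosen with earlier results of these data known. Values in every library that a test used are given for some members. In the ATO test these are the highest and lowest member of each group and the 6 smallest p. In the p53-M133T and wild-type p53 tests they are the 3 highest and 3 lowest. PSMD2 was added after its values were seen. Some genes are not reported here and were left out of the lists. Alternatives were other scaling, tools, filters, a length and GC correction, other pseudocounts and sizes, and leaving out libraries.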

Additional observations from a re-analysis of the deposited data

Results flagged for a closer look

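For 8 members and 3 related genes, the test of the difference itself set the ATO effect in p53-M133T cells apart from the mean ATO effect in vector and p53-R273H cells. In the quasi-likelihood test of edgeR (Benjamini-Hochberg adjusted), the difference on the log2 scale was -0.35 for PSMA7 (adjusted p = 0.00351), -0.35 for PSMD9 (0.0391), -0.34 for PSMG1 (0.0191), -0.30 for PSMA2 (0.0198) and -0.30 for PSMB3 (0.0198). It was -0.27 for POMP (0.0404) and -0.27 for PSMC1 (0.0458), and it was 0.28 for PSME4 (0.0325). Among related genes it was 0.36 for DDI2 (0.0062), 0.38 for SEL1L (0.00163) and -0.28 for UFD1 (0.0422). DESeq2 called none of the 8 members, where it called 1.13% of all genes higher and 0.0215% lower. None of the 8 members was called under all 5 alternatives of this test. DDI2 and SEL1L did not pass by DESeq2 or with the length and GC correction, nor UFD1 by DESeq2, with its size factors or with no filter.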

How the results depend on the processing

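In the ATO test, 1 member was lower with no filter on low counts, with a mean of at least 10 CPM, with no replicate block (17 higher, median 0.17) and without the p53-R273H pair. Of all genes 15.1%, 23.6%, 19.9% and 18.2% were lower in these fits, and 19.6% were higher with no replicate block. Leaving out 1 line gave between 5 and 34 higher members and between 0 and 1 lower. In the p53-M133T difference, higher and lower members were 0 and 0 by DESeq2 (1.13% and 0.0215% of all genes). With no filter they were 0 and 4 (3.62% and 1.31% of all genes). With the length and GC correction 0 were higher (1.78% of all genes), with a median of -0.14. In wild-type p53 cells they were 2 and 14 with that correction (15.2% and 18.4% of all genes). Leaving out 1 library there gave 1 to 2 higher and 1 to 11 lower. Between 2 libraries, 0 members were higher at 1.5-fold and 0 at 2-fold in vector and in p53-R273H cells with ATO. In p53-M133T cells with ATO 1 was higher with a pseudocount of 5 CPM, 1 higher and 0 lower at 1.5-fold and 0 and 0 at 2-fold. For wild-type p53 against vector, 1 was higher and 1 lower at 1.5-fold, and 1 and 0 at 2-fold. The shares of all genes at 1.5-fold, at 2-fold and with that pseudocount were not counted, so these member counts have no background.

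Some log2 fold changes that did not pass changed sign, most of them near 0, but also SEM1 (0.18 as reported) and PSMB10 (-0.12). With ATO and a mean of at least 10 CPM they were -0.017 for PSMA4, -0.012 for PSMB5, -0.0027 for PSME2, -0.011 for PSME3 and -0.020 for UBE3C. With the replicate block and the length and GC correction they were -0.023 for PSMA2, -0.052 for PSMA3, -0.085 for PSMA4, 0.059 for PSMD4, 0.103 for PSMB10, -0.038 for SEM1 and -0.035 for UBE3C. Leaving out 1 line gave -0.012 to 0.164 for PSMA2, -0.033 to 0.085 for PSMA4, -0.029 to 0.159 for PSMA7, -0.038 to 0.019 for PSMD4 and -0.043 to 0.166 for PSMD9. It gave -0.012 to 0.069 for UBB, -0.035 to 0.056 for UBE3C and -0.073 to 0.197 for ZFAND2B. For wild-type p53 they were -0.00233 for PSMB7 with no filter and -0.017 for PSMB1 with the correction. Leaving out 1 untreated library gave -0.024 to 0.087 for PSMB1, -0.029 to 0.067 for PSMB7, -0.076 to 0.0041 for PSMD7 and -0.112 to 0.027 for PSMD9. None of these genes was called under the setting that turned its sign, and the causes were not tested. With 1 library per group, the spread between cultures limits every value here, and shared exons limit 18 members.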
